A study of Homo sapiens with 42 samples.

Results

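The comparison set 3 arrays of A375 cells exposed to MLN4924 directly against 3 arrays of the same cells exposed to daunorubicin, both with p53 left in place. They are 6 of 42 arrays in all and were taken by their titles. A375 is an established melanoma line of human origin that carries a mutant, active BRAF kinase. Every culture used here had first been transfected for 48 hours with an siRNA and was then treated for 26 hours. The GL2 siRNA is directed against firefly luciferase and serves as a control with no human target. MLN4924 was given at 650 nM and daunorubicin at 100 nM, so each agent was tested at a single dose, and vehicle cultures received 0.065% DMSO. The 6 DMSO arrays of GL2 siRNA cells come in a first and a second set of 3, and no label ties a set to an agent. 6 further arrays had p53 siRNA with the same agents at the same doses and times, and 3 had GL2 siRNA with 5 uM Nutlin. Another 6 had p53 siRNA with DMSO, and 3 had BRCA1 siRNA with MLN4924 at the same dose. The remaining groups enter the pooled spread. They had p53 siRNA with Nutlin, BRCA1 siRNA with DMSO, and CDT1 siRNA with DMSO or MLN4924. Each group has 3 arrays of 1 cell line, and the labels do not say whether they came from separate cultures. The p-values therefore measure spread between arrays only, pooled over all 14 groups of the series.

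MLN4924 blocks the NEDD8-activating enzyme. Cullin-RING ubiquitin ligases need NEDD8 on their cullin to work, and their substrates include CDT1, which loads the replicative helicase onto origins, and the antioxidant regulator NRF2. CDT1 that is not degraded lets origins fire again within one S phase, which is called re-replication and activates the DNA damage checkpoint. Daunorubicin is an anthracycline that intercalates into DNA and traps topoisomerase II in cleavage complexes, leaving double-strand breaks. Both kinds of damage stabilise p53, which induces CDKN1A (p21) and MDM2, its own ubiquitin ligase. p21 restrains the cyclin-dependent kinases and thereby the transcription of E2F-driven replication genes and of mitotic genes.

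4 promoters are shown, 1 from each of 4 groups in which the agents differed at both scalings described later. Each gene was picked among called members with 1 promoter window and a match to the motif, so the presence of a match was fixed by the choice. They are the 250 bases before the RefSeq start of the gene (GRCh38.p14), 5′ to 3′ along the gene, with matches to a motif in capitals on whichever strand they lie. DTL, a replication gene at chr1:212035498-212035747 (plus strand), has an E2F site. TOP2A, a mitotic gene at chr17:40417897-40418146 (minus strand), has 2 matches to the core of the cell cycle homology region and 4 CCAAT boxes. GCLM, an NRF2 target at chr1:93909431-93909680 (minus strand), has 1 core of the antioxidant response element. CHAC1, an ATF4 target at chr15:40953221-40953470 (plus strand), has 1 composite site of ATF4 and C/EBP.
DTL: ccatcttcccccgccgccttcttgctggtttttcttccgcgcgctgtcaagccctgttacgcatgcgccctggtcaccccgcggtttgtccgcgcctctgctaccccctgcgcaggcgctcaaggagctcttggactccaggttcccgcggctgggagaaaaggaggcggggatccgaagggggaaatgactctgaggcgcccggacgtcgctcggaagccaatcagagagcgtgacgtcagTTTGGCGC
TOP2A: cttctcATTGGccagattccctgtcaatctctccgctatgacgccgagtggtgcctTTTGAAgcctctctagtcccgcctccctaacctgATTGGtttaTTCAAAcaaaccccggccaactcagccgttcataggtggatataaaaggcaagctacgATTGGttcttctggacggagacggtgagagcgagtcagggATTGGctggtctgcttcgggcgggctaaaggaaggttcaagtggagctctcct
GCLM: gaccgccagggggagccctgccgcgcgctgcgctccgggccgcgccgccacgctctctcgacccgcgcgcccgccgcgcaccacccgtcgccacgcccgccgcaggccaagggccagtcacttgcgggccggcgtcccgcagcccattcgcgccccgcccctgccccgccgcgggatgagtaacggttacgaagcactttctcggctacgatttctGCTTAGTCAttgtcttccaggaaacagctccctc
CHAC1: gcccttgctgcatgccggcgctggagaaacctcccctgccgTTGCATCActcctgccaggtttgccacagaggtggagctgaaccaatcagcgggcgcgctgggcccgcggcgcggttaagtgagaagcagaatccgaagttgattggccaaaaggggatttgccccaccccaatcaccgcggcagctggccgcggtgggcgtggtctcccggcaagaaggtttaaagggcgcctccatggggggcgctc

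The E2F letters searched were TTTCGCGC and TTTGGCGC, the cell cycle homology letters TTTGAA, and the CCAAT box CCAAT, all on both strands of the window from 250 bases before to 50 bases after the start. An E2F match lay in 15 of 44 promoters of replication genes called higher with MLN4924 (34.1%) and in 1.4% of the promoters of 27303 genes. TTTGAA was found in 28 of 38 promoters of the called mitotic genes (73.7%) against 18.2% of all, and CCAAT in 30 of these 38 (78.9%) against 39.7%. The antioxidant core, TGACNNNGC, lay in 5 of 14 called NRF2 targets (35.7%) against 16.1% of all promoters. It also lay in 42.3% of called ATF4 targets, 28.9% of called mitotic genes and 25.0% of called replication genes. TGATGNAA, the ATF4 and C/EBP site, lay in 12 of 26 called ATF4 targets (46.2%) against 4.46% of all. The p53 decamer, a motif with degenerate positions, matched in 1 of 8 p53 targets called higher (12.5%) and 0 of 3 called lower, in 7 of 31 measured p53 targets (22.6%), and in 8.06% of all promoters. In the other lists too, shares over all measured members, called or not, were near those of the called members. They were 37.0% for E2F in replication genes, and 72.5% for TTTGAA and 80.0% for CCAAT in mitotic genes. For the antioxidant core in NRF2 targets the share was 33.3%, and for the ATF4 site in ATF4 targets 43.3%. These are matches of letters in promoters of genes grouped by earlier knowledge of their regulators, and binding was not measured.

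3 libraries stood apart from their labels or their group. Results below include them unless stated, and only some are also given without them. The library labelled MLN4924 replicate 3 of GL2 siRNA had a BRCA1 log2 signal of 4.70, against 7.95 and 8.24 in replicates 1 and 2. In BRCA1 siRNA cells with MLN4924 the third library read 8.18 and the others 4.93 and 5.28. Replicate 1 of p53 siRNA with daunorubicin had a 5′ to 3′ signal ratio of beta-actin of 0.0118, where the GL2 arrays compared lay between 0.727 and 0.906. In GL2 cells this ratio was 0.727 to 0.769 with daunorubicin and 0.888 to 0.906 with MLN4924, and its part in the differences was not tested. All 42 arrays had the same trimmed mean (149.98), but the median gene was at 6.20 to 6.35 on the daunorubicin arrays and at 5.82 to 5.92 on the MLN4924 arrays. Each array was therefore centred on its median gene, and all levels below are log2 signals after centring. The p53 transcript itself was not analysed here. CDKN1A read 9.01 to 9.25 on the 6 GL2 DMSO arrays and 6.48 to 7.57 on the 6 p53 siRNA DMSO arrays. Of the melanocyte factors, MITF, PAX3 and SOX10 were measured at mean levels of 7.9 or above in both agents, whereas the pigment genes TYR, TYRP1, PMEL and MLANA were all below 5.0, the median of all deposited signals.

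Replication genes lay close to their DMSO levels in MLN4924 cells and far below them in daunorubicin cells, and mitotic genes lay between DMSO and daunorubicin with MLN4924. With MLN4924, 18 of 31 antioxidant targets of NRF2, 29 of 33 amino acid stress targets of ATF4, 24 of 27 ribosome biogenesis genes and MYC were called higher. Called lower were 6 of 13 histone genes, 12 of 30 interferon-stimulated genes, IL1A and IL1B, and the neural crest genes SOX10, S100B and ERBB3. The central p53 targets CDKN1A and MDM2 were raised by both agents to levels that differed little. Calls needed an adjusted p under 0.05 (limma, Benjamini-Hochberg over 19775 genes) and a difference of at least 1.5-fold. By this rule 5773 of 19775 genes differed (29.2%), 3817 higher with MLN4924 (19.3%) and 1956 lower (9.89%). With the scaling left as deposited, 5940 genes were called (30.0%), now 1755 higher (8.87%) and 4185 lower (21.2%), and the median of all genes moved from 0.08 to -0.32. All 1755 and all 1956 of these were called in the same direction at both scalings. Without MLN4924 replicate 3, 6080 genes were called (30.7%), 4029 higher (20.4%) and 2051 lower (10.4%), among them 3628 of the 3817 and 1703 of the 1956. Counts of list members are to be read against the share of all genes at the same scaling.

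Set beside the DMSO arrays, which both agents share, the 3817 genes that were higher with MLN4924 were made up of several kinds. Over all genes MLN4924 gave 2024 higher calls against DMSO (10.2%) and 1410 lower (7.13%), and daunorubicin 1552 higher (7.85%) and 2254 lower (11.4%). At the deposited scaling these were 1136 and 2166 for MLN4924 and 2823 and 1416 for daunorubicin. Of the 3817 genes, 1393 were called lower with daunorubicin and not called with MLN4924, and 1027 were called higher with MLN4924 alone. Another 169 were higher with MLN4924 and lower with daunorubicin, and 151 were lower with both. Of the 1956 genes lower with MLN4924, 609 were called lower with that agent alone, 589 higher with daunorubicin alone, and 154 both. For 1026 of the first set and 529 of the second, neither agent was called against DMSO. The second DMSO set differed from the first in 188 genes (0.951%), of which 39 and 31 lie in these sets.

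**Figure D1:**
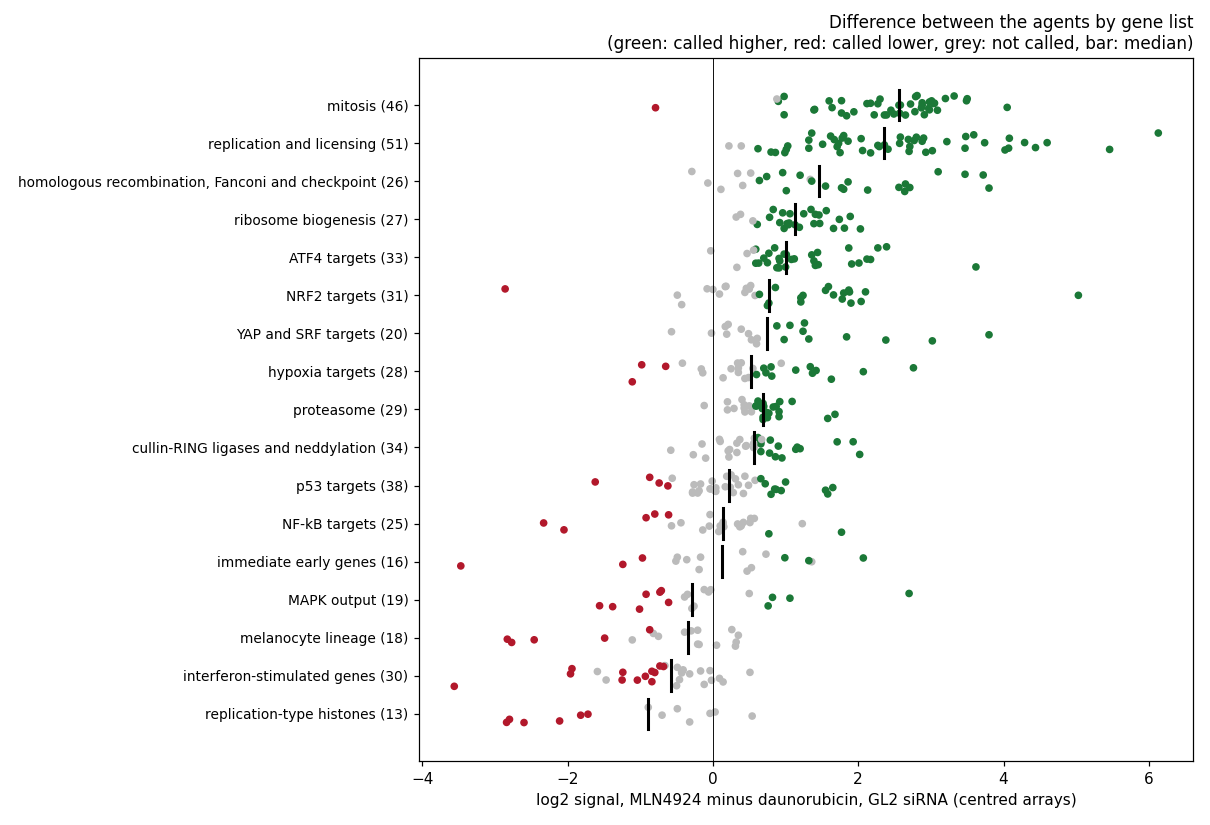
Each point is 1 measured gene, placed by its log2 difference between MLN4924 and daunorubicin in GL2 siRNA cells, in rows by gene list with the number measured in brackets. Bars are list medians, at 2.57 for mitosis and 2.36 for replication at the top and at -0.89 for histones at the bottom, and colours mark genes called higher (green), lower (red) or not called (grey) on centred arrays.

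Replication and licensing genes separated the agents widely. Of 51 measured, 49 were called higher with MLN4924 and 0 lower, with a median log2 difference of 2.36 against 0.08 over all genes. At the deposited scaling 46 were still called higher. Against DMSO the same 51 genes had a median of -2.68 with daunorubicin, 48 called lower, and of -0.40 with MLN4924, 14 called lower and 1 higher. With Nutlin, which frees p53 from MDM2 without damaging DNA, the median was -2.94. The median level of the list was 9.08, 9.19 and 8.24 on MLN4924 replicates 1, 2 and 3, and 9.03 to 9.17 on the DMSO arrays. Only replicate 3 thus lay below the DMSO range. All 12 licensing genes and all 22 helicase and fork genes were called higher with MLN4924.

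CDT1, the licensing factor that MLN4924 protects from degradation as a protein, had levels of 8.86, 8.81 and 7.27 with MLN4924 and 5.34, 5.42 and 5.40 with daunorubicin. The 6 DMSO arrays lay between 8.56 and 9.16, so the daunorubicin arrays were the low ones and MLN4924 replicate 3 lay between. The difference was 2.93 ± 0.29 (SE; limma adjusted p = 2e-09), or 7.62-fold, and 3.45 without replicate 3. Here and below each group has 3 arrays, but the SE rests on the spread pooled over all 14 groups. Where replicate 3 departs from the others, it can be smaller than the scatter of the arrays compared. GMNN, the geminin gene whose protein inhibits CDT1, differed by 2.29 ± 0.19 (adjusted p = 3e-11). DTL, the receptor that brings CDT1 and p21 to the CUL4 ligase and whose promoter is printed above, read 10.03, 10.10 and 8.67 with MLN4924 and 5.04, 5.32 and 5.12 with daunorubicin. That is 21.7-fold, a log2 difference of 4.44 ± 0.30 (adjusted p = 5.6e-13), with DMSO arrays at 9.84 to 10.00. Both groups were fully apart in each of these 3 genes.

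CDC45, a part of the replicative helicase, had the largest difference in the list. Its levels were 7.38, 7.53 and 6.20 with MLN4924 and 0.92, 1.04 and 0.77 with daunorubicin, a difference of 6.13 ± 0.23 (adjusted p = 1.7e-18). The daunorubicin values lie far below the median signal of 5.0, where the size of a fold is uncertain because no detection call was used. GINS2, another helicase part, differed by 5.46 ± 0.30, and MCM5, a ring subunit, by 3.22 ± 0.17, each with a daunorubicin mean in the same dim range. RRM2, which makes deoxynucleotides, was bright in both groups, at 11.93, 11.83 and 11.09 with MLN4924 and 7.42, 7.67 and 7.71 with daunorubicin. CDC25A, the phosphatase that activates CDK2, was higher by 4.60 ± 0.35, and CCNE2, a cyclin that drives entry into S phase, by 4.29 ± 0.22. CCNE1, the other E-type cyclin, read 8.05, 8.10 and 8.72 with MLN4924, 6.74, 6.70 and 6.43 with daunorubicin and 6.93 to 7.44 with DMSO. Unlike CDT1, its MLN4924 arrays lay above DMSO, by 1.09, and its replicate 3 was the highest of the 3.

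Mitotic genes were lower than DMSO with both agents and much lower with daunorubicin. Of 46 measured, 44 were called higher with MLN4924 than with daunorubicin and 1 lower, with a median difference of 2.57, and 42 and 1 at the deposited scaling. Against DMSO their medians were -1.58 with MLN4924 (44 called lower) and -4.13 with daunorubicin (46 called lower). TOP2A, the topoisomerase that daunorubicin poisons, read 9.30, 9.31 and 8.54 with MLN4924 and 5.82, 6.39 and 5.99 with daunorubicin. DMSO arrays read 10.80 to 10.98, so that MLN4924 lay between DMSO and daunorubicin on every array. The difference of the agents was 2.98 ± 0.21 (adjusted p = 1.2e-12). CCNB1, the cyclin that partners CDK1 at entry into mitosis, read 9.77, 9.78 and 9.22 against 6.82, 6.97 and 6.61, a difference of 2.79 ± 0.16. CDK1 itself differed by 3.50 ± 0.23, the condensin subunit NCAPG by 3.49 ± 0.23, and BIRC5 (survivin) by 4.05 ± 0.31. The exception was CDC25B, a phosphatase that activates CDK1, at 8.81, 8.61 and 8.26 with MLN4924 and 9.40, 9.37 and 9.27 with daunorubicin. Its difference was -0.79 ± 0.14 (adjusted p = 2.5e-05).

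**Figure D2:**
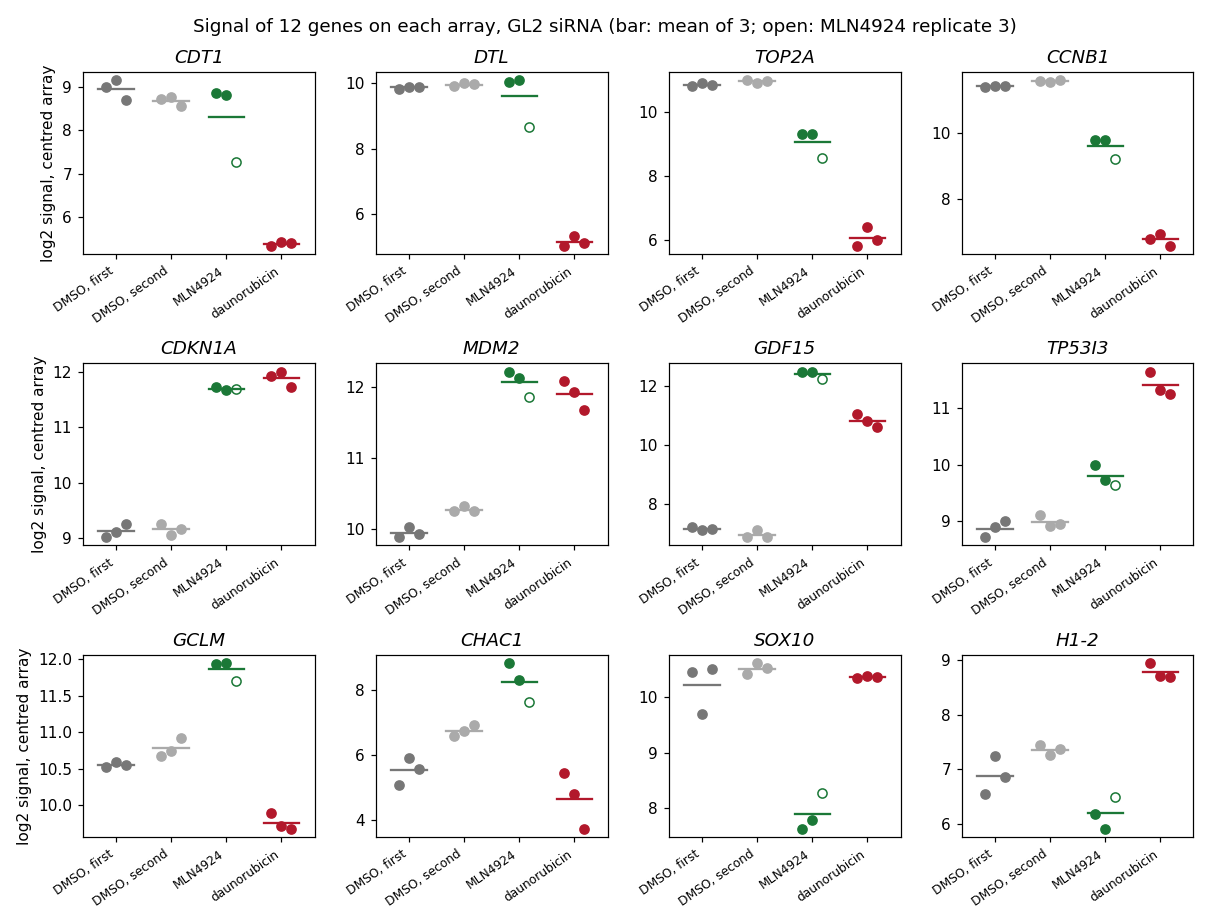
Log2 signal of 12 genes on each array of GL2 siRNA cells, in the first and second DMSO set, MLN4924 and daunorubicin. Points are arrays, bars are means of 3, and the open point is MLN4924 replicate 3. CDT1 and DTL stay near DMSO on MLN4924 replicates 1 and 2, CDKN1A and MDM2 are high with both agents, and SOX10 is low with MLN4924 only.

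The list of recombination, Fanconi and checkpoint genes, which repair broken and crosslinked DNA or signal its presence, had 26 members measured. Of these, 19 were called higher with MLN4924 and 0 lower, with a median of 1.45, and 21 without replicate 3. By role, 9 of 12 recombination genes (median 1.71), 7 of 8 Fanconi genes (median 2.18) and 3 of 6 checkpoint genes (median 0.53) were called higher. RAD51AP1, which assists strand invasion by the recombinase, read 9.63, 9.76 and 8.86 with MLN4924 and 5.48, 5.75 and 5.87 with daunorubicin, a difference of 3.72 ± 0.22 (adjusted p = 5.2e-14). BRIP1, a helicase bound to BRCA1, was higher by 2.71 ± 0.26, UBE2T, the Fanconi ubiquitin conjugase, by 2.65 ± 0.23, and FANCI by 2.56 ± 0.23. BARD1, the partner of BRCA1, differed by 1.86 ± 0.20. BRCA1 differed by 1.34 ± 0.58 with all arrays (adjusted p = 0.0726), which was not a call, and by 2.47 without replicate 3 (adjusted p = 7.9e-05). With all arrays kept it was called under 3 alternatives, at 1.22 with a pseudocount of 16, at 1.34 with dim genes left out and at 2.11 with array weights. The third MLN4924 library was also below both others in 48 of 51 replication genes, 45 of 46 mitotic genes and 23 of 26 genes of the recombination, Fanconi and checkpoint list. It was above both in 10 of 13 histone genes and 20 of 31 NRF2 targets. Even so it lay above all 3 daunorubicin arrays in 50 replication and 45 mitotic genes, since in these the groups did not overlap, as in 30.8% of all genes.

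Histone genes ran the other way. Of 13 measured replication-type histone genes, 6 were called lower with MLN4924 and 0 higher, with a median of -0.89, and 7 without replicate 3. H1-2, a linker histone, read 6.17, 5.91 and 6.5 with MLN4924 and 8.95, 8.72 and 8.70 with daunorubicin, against 6.54 to 7.45 on the DMSO arrays. MLN4924 therefore lay below every DMSO array and daunorubicin above every one. The difference was -2.60 ± 0.16 (adjusted p = 1.5e-13), or 6.06-fold. H2BC21 differed by -2.84 ± 0.33, H2AC6 by -2.80 ± 0.27, H2BC5 by -2.11 ± 0.20 and H4C8 by -1.82 ± 0.24. H2BC21 read 5.25, 5.50 and 7.23 with MLN4924 against 8.94, 8.80 and 8.74, so replicate 3 lay nearer the daunorubicin arrays and the difference was -3.46 without it. Histone genes are near-identical copies, and a probe set can read more than 1 of them.

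p53 targets were raised by both agents. Of 38 measured, 30 were called higher than DMSO with MLN4924 and 27 with daunorubicin, none lower with either, with medians of 1.33 and 1.09, and 31 with Nutlin (median 1.44), where 7.99% of all genes were. The 2 agents share those DMSO arrays. Between the agents the median was 0.22, with 10 called higher with MLN4924 and 4 lower, shares of 38 to be read against 19.3% and 9.89%. At the deposited scaling these counts turned to 4 and 10 (4 and 9 with quantile normalization), and 4 in each direction held at both scalings. CDKN1A read 11.74, 11.67 and 11.70 with MLN4924 and 11.94, 12.01 and 11.74 with daunorubicin, every MLN4924 array at or below the lowest daunorubicin array. The difference was -0.19 ± 0.17 (adjusted p = 0.415) and became -0.59, a called value, at the deposited scaling. MDM2 read 12.21, 12.12 and 11.86 against 12.08, 11.92 and 11.67, overlapping groups that differed by 0.17 ± 0.16 (adjusted p = 0.431).

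The 4 targets higher with MLN4924 at both scalings were GDF15, PMAIP1, SFN and POLH. GDF15, a secreted stress cytokine, read 12.49, 12.50 and 12.24 with MLN4924, 11.07, 10.83 and 10.61 with daunorubicin and 6.87 to 7.21 with DMSO. Both agents were far above DMSO, and MLN4924 was the higher by 1.58 ± 0.25 (adjusted p = 4.7e-06). PMAIP1 (NOXA), a BH3-only death gene that ATF4 also drives, read 10.88, 10.96 and 10.61 against 9.27, 9.11 and 9.12, where the daunorubicin arrays lay within the DMSO range of 9.01 to 9.35. SFN (14-3-3 sigma), which holds CDK1 in the cytoplasm, was higher by 1.55 ± 0.13, and POLH, a polymerase that copies past lesions, by 1.0 ± 0.24. The 4 targets lower with MLN4924 at both scalings were TP53I3, TP53INP1, FUCA1 and CYFIP2. TP53I3, a quinone oxidoreductase, read 10.00, 9.73 and 9.64 with MLN4924 and 11.65, 11.33 and 11.25 with daunorubicin, a difference of -1.62 ± 0.12 (adjusted p = 4e-12). TP53INP1, a stress-induced regulator of p53 and autophagy, differed by -0.87 ± 0.21, the lysosomal fucosidase FUCA1 by -0.74 ± 0.12 and CYFIP2 by -0.62 ± 0.20, which was -0.38 without replicate 3. FAS, the death receptor, was higher with MLN4924 by 0.87 ± 0.16 on centred arrays and was not called at the deposited scaling (0.48).

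NRF2 is degraded through KEAP1 and the CUL3 ligase, and its targets were higher with MLN4924. Of 31 measured, 18 were called higher and 1 lower, with a median of 0.77, and 12 and 3 at the deposited scaling. Against DMSO 18 were called higher and 0 lower with MLN4924 (median 0.80), and 4 higher and 2 lower with daunorubicin (median -0.04). Of the 9 genes of the glutathione and thioredoxin systems, 7 were called. GCLM, the modifier subunit of the enzyme that starts glutathione synthesis, read 11.94, 11.95 and 11.70 with MLN4924, 9.90, 9.71 and 9.68 with daunorubicin and 10.52 to 10.92 with DMSO. It was called on opposite sides of DMSO with the agents, with a difference of 2.10 ± 0.14 (adjusted p = 6.2e-13), or 4.29-fold. SRXN1, which repairs oxidised peroxiredoxins, read 11.16, 11.06 and 10.95 against 8.96, 9.11 and 8.96, where the daunorubicin arrays lay among the DMSO arrays (8.75 to 9.49). TXNRD1, thioredoxin reductase, was higher by 1.55 ± 0.13, TRIM16 by 1.88 ± 0.15 and the aldo-keto reductase AKR1B10 by 1.59 ± 0.14. AKR1B10 was above DMSO with both agents, by 3.21 with MLN4924 and 1.62 with daunorubicin. The exception was ABCC3, an efflux pump, at 4.05, 5.16 and 7.60 with MLN4924 and 8.57, 8.49 and 8.31 with daunorubicin. Its replicate 3 lay nearest the daunorubicin arrays, and the difference was -2.86 ± 0.48 with and -3.86 without it. When only the 2 groups were fitted, ABCC3 was not called.

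ATF4 targets, which supply amino acids under stress, were higher with MLN4924 in 29 of 33 measured and lower in 0, with a median of 1.0, and in 16 at the deposited scaling. Their medians against DMSO were 0.59 with MLN4924 and -0.40 with daunorubicin. CHAC1, which degrades glutathione and whose promoter is printed above, read 8.84, 8.32 and 7.64 with MLN4924 and 5.45, 4.78 and 3.72 with daunorubicin, a difference of 3.62 ± 0.32 (adjusted p = 2.1e-10). It differed by 1.23 between the DMSO sets, and the difference of the agents became 2.39 when each was taken from a different set (the second for MLN4924, the first for daunorubicin). ATF3, a stress-induced transcription factor, read 9.83, 9.98 and 9.44 against 7.49, 7.33 and 7.27, with DMSO at 6.01 to 6.5. Both agents were above DMSO there and MLN4924 was the higher by 2.39 ± 0.16. CTH, which makes cysteine, differed by 2.17 ± 0.17 and the cationic amino acid transporter SLC7A1 by 1.36 ± 0.13. The ER unfolded protein response had 4 of 17 called higher, beside 19.3% of all genes. At the deposited scaling 0 were higher and 3 lower, beside 8.87% and 21.2% of all genes.

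**Figure D3:**
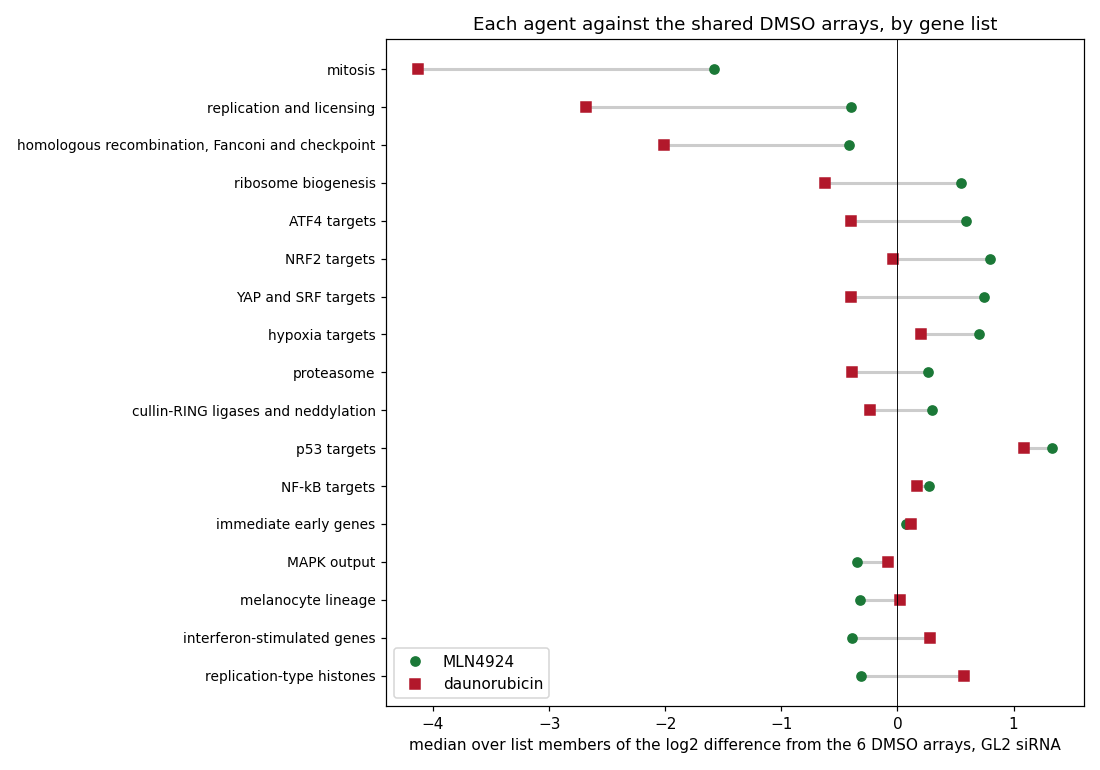
Median log2 difference from the 6 DMSO arrays over the members of each list, with MLN4924 (circles) and daunorubicin (squares) in GL2 siRNA cells on centred arrays, joined by a line. Mitosis lies at -1.58 and -4.13, replication at -0.40 and -2.68, and p53 targets at 1.33 and 1.09. The agents share the DMSO arrays.

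Ribosome biogenesis genes were called higher with MLN4924 in 24 of 27 measured and lower in 0, with a median of 1.13, and 19 held at the deposited scaling. Against DMSO the medians were 0.55 and -0.62. BYSL, which matures the small subunit, differed by 2.03 ± 0.14, UTP15, a part of the small-subunit processome, by 1.89 ± 0.15, TCOF1, a nucleolar cofactor of RNA polymerase I, by 1.74 ± 0.14, and the rRNA methyltransferase fibrillarin (FBL) by 1.47 ± 0.10. MYC, a transcription factor that drives these genes, read 8.95, 9.12 and 9.0 with MLN4924, 6.44, 6.27 and 6.26 with daunorubicin and 7.47 to 8.03 with DMSO. Its 3 groups did not overlap, with MLN4924 above and daunorubicin below DMSO, and the agents differed by 2.70 ± 0.16 (adjusted p = 3.6e-14). MYC belongs to the list of MAPK outputs, in which the agents were mixed, with 4 of 19 called higher, MYC included, and 7 lower (2 and 11 at the deposited scaling). Over all genes 19.3% were higher and 9.89% lower (8.87% and 21.2% at the deposited scaling). SPRY2, an inhibitor of receptor signalling, differed by -1.56 ± 0.18 and ETV1 by -1.38 ± 0.18.

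The machinery that MLN4924 acts on was measured as well. Of 34 neddylation and cullin-RING genes, 15 were called higher with MLN4924 and 0 lower, and 6 and 1 at the deposited scaling. SKP2, the receptor of the ligase that degrades p27, differed by 1.93 ± 0.19, and NAE1, a subunit of the enzyme that MLN4924 inhibits, by 1.20 ± 0.12. NAE1 read 11.74, 11.71 and 11.54 with MLN4924, 10.52, 10.57 and 10.32 with daunorubicin and 11.36 to 11.59 with DMSO, so that daunorubicin was the low group. KEAP1 differed by 1.16 ± 0.11 and CUL3 by 1.14 ± 0.12. Proteasome genes depended on the scaling, with 19 of 29 called higher on centred arrays, 10 with the agents taken from different DMSO sets and 2 at the deposited scaling. TOP2A, 7.89-fold higher with MLN4924, was counted with the mitotic genes. Among 10 other genes of topoisomerases and anthracycline handling, 3 were called higher on centred arrays (TOP1, TOP3A and TDP2). Without MLN4924 replicate 3 there were 6, and at the deposited scaling 0. Over all genes these shares were 19.3%, 20.4% and 8.87%. The efflux pump gene ABCB1 differed by 0.33 ± 0.23 (adjusted p = 0.291).

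YAP and SRF targets, genes of cell shape and adhesion, were higher in 10 of 20 and lower in 0, with 9 and 1 at the deposited scaling. ANKRD1, a nuclear cofactor, read 8.54, 8.62 and 10.10 with MLN4924 and 5.25, 4.98 and 5.62 with daunorubicin, a difference of 3.80 ± 0.32, with replicate 3 the highest array. CCN2, a matricellular protein, read 11.96, 11.95 and 11.11 against 8.75, 8.68 and 8.53, and CCN1, its relative, differed by 2.38 ± 0.14. Of 28 hypoxia targets, 12 were called higher and 3 lower (7 and 4 at the deposited scaling), led by the glucose transporter SLC2A3, which differed by 2.76 ± 0.16, and the peptide hormone ADM, by 2.07 ± 0.13. ANGPTL4, a secreted lipase inhibitor, went the other way at -1.11 ± 0.33. Its call was lost without MLN4924 replicate 2 (-0.78), with the agents taken from different DMSO sets (-0.79), and when only the 2 groups were fitted. The immediate early list was mixed, with 3 of 16 higher and 3 lower (3 and 6 at the deposited scaling), beside 19.3% and 9.89% of all genes. Without MLN4924 replicate 3 the list had 5 higher and 5 lower. In it JUN differed by 1.32 ± 0.12 and EGR3, at 4.01, 4.79 and 4.66 against 8.02, 7.85 and 8.01, by -3.47 ± 0.27.

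Of 18 melanocyte genes, 5 were called lower with MLN4924 and 0 higher, a share set against 9.89% of all genes. SOX10, the neural crest factor that maintains the lineage, read 7.63, 7.79 and 8.28 with MLN4924, 10.35, 10.38 and 10.36 with daunorubicin and 9.70 to 10.61 with DMSO. MLN4924 was thus the group that left the DMSO range, and the difference was -2.46 ± 0.24 (adjusted p = 1.3e-09). S100B read 5.28, 5.74 and 5.97 against 8.36, 8.68 and 8.26, and the receptor ERBB3 differed by -2.83 ± 0.18. MITF, the master regulator of pigment genes, read 8.20, 8.27 and 8.19 against 8.39, 8.58 and 8.32 and was not called (adjusted p = 0.489), though it was at the deposited scaling (-0.61). Markers of other cell types were few, and many of them were dim. Summed linear signals of 9 epithelial markers were 177.8 to 260.9 with MLN4924 and 172.7 to 213.0 with daunorubicin, of 9 fibroblast markers 421.1 to 633.3 and 536.7 to 566.0, and of 6 leukocyte markers 173.2 to 329.1 and 495.9 to 610.4. In each of these lists 3 members were below the median signal on all 6 arrays. Of the leukocyte markers, LYZ, the lysozyme gene, was called lower with MLN4924 (-1.95 ± 0.29) and CD14, a receptor of monocytes in the dim range, higher (2.30 ± 0.89). Of the epithelial markers 2 were called higher and 2 lower, all dim with at least 1 agent, and of the fibroblast markers 0 and 1. The part of other cells in any result was not tested.

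Interferon-stimulated genes were called lower with MLN4924 in 12 of 30 and higher in 0, with a median of -0.58, and in 22 at the deposited scaling. PARP9 differed by -1.25 ± 0.14, OAS1, a sensor of double-stranded RNA, by -1.24 ± 0.18, IFI44 by -1.04 ± 0.14 and ISG15, a ubiquitin-like modifier, by -0.84 ± 0.17. TRIM22, which p53 also induces, was above DMSO with both agents, by 2.06 with MLN4924 and 4.0 with daunorubicin. Of 25 NF-kB targets, 2 were higher and 5 lower. IL1B, an inflammatory cytokine, read 4.82, 5.04 and 6.29 with MLN4924 and 7.30, 7.42 and 7.60 with daunorubicin, a difference of -2.05 ± 0.28 that was -0.95 with the agents taken from different DMSO sets. IL1A differed by -2.33 ± 0.27. SOD2, the mitochondrial superoxide dismutase, was higher with MLN4924 by 1.77 ± 0.26, while the DMSO sets differed by -1.56 in it. Sterol synthesis had 7 genes higher and 1 lower of 24 with fatty acid genes included (5 and 6 at the deposited scaling), among them FDPS at 1.52 ± 0.11 and the regulator SREBF1 at -1.22 ± 0.14. In the BCL2 family 4 of 13 were higher, including BID, a BH3-only protein, at 1.13 ± 0.14. The counts of these lists stand beside 19.3% higher and 9.89% lower over all genes, or 8.87% and 21.2% at the deposited scaling.

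Outside the lists, most of the largest differences had a mean in the dim range with 1 agent. KRTAP3-1, a keratin-associated protein gene, read 8.90, 8.46 and 10.30 with MLN4924, 3.07, 3.08 and 2.84 with daunorubicin and 1.97 to 3.08 with DMSO. It was thus near the DMSO level with daunorubicin, and the difference was 6.22 ± 0.38. IGFBP5, a binder of insulin-like growth factors, had the largest difference the other way, at 0.09, 1.92 and 3.99 with MLN4924 and 8.33, 8.81 and 8.46 with daunorubicin, with DMSO at 7.75 to 8.36. Its difference was -6.53 ± 0.45 and -7.53 without replicate 3. SHISA2 differed by -5.14 ± 0.24, the hyaluronan-degrading CEMIP by -5.01 ± 0.45, the transcription factor MAF by -4.72 ± 0.24 and CDKN1C (p57), a CDK inhibitor, by -4.33 ± 0.25. SHISA2 and MAF were lower than DMSO with MLN4924 and higher with daunorubicin, by -3.34 and 1.80 and by -2.21 and 2.51. Differences of at least 4-fold were found in 301 genes higher and 383 lower.

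The same contrast was made in p53 siRNA cells. How far p53 was lost under each agent was not examined, so unequal depletion cannot be told apart from dependence on p53. In p53 siRNA cells 5695 genes were called (28.8%), 3998 higher (20.2%) and 1697 lower (8.58%). The difference of the agents itself differed between p53 and GL2 siRNA in 1589 genes (8.04%). Of these, 787 were upward (3.98%) and 802 downward (4.06%), or 505 and 1443 at the deposited scaling. Replication genes were downward in 41 of 51, mitotic genes in 38 of 46 and genes of the recombination, Fanconi and checkpoint list in 13 of 26, with 0 upward in each. Without the 3 doubted libraries these were 45, 41 and 17, and over all genes 1112 were upward and 793 downward. Within p53 siRNA cells the median differences of the agents were 0.62 for replication genes and 0.74 for mitotic genes, against 2.36 and 2.57 in GL2 cells. CDC45 read 7.94, 7.72 and 7.99 with MLN4924 and 7.42, 7.34 and 7.28 with daunorubicin in p53 siRNA cells. The daunorubicin arrays, far below DMSO in GL2 cells, thus lay within the p53 siRNA DMSO range of 6.57 to 7.49, and the change in the difference was -5.59 ± 0.33 (adjusted p = 1.1e-12). TOP2A read 10.88, 10.78 and 10.96 against 10.82, 10.05 and 9.88, a change of -2.36 ± 0.29.

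p53 targets themselves divided. CDKN1A read 7.73, 7.14 and 7.89 with MLN4924 and 10.04, 9.88 and 10.04 with daunorubicin in p53 siRNA cells, where DMSO arrays were at 6.48 to 7.57. The agents, which differed by -0.19 in GL2 cells, differed by -2.40 here, and the change was -2.21 ± 0.24 (adjusted p = 2.2e-07). GDF15 turned from 1.58 to -1.32, at 6.75, 6.99 and 7.66 against 7.75, 8.56 and 9.05, a change of -2.90 ± 0.35. MDM2 differed by 0.11 in p53 siRNA cells, a change of -0.07 ± 0.22 (adjusted p = 0.911). Of 38 p53 targets, 11 were downward and 1 upward. Histone genes were upward in 8 of 13 and downward in 0, and H1-2 changed by 3.03 ± 0.23 to 7.30, 6.74 and 7.10 against 6.35, 6.55 and 6.95.

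NRF2 targets were again mostly higher with MLN4924. In p53 siRNA cells 22 of 31 were called higher, with a median of 1.20, and 8 were upward and 0 downward against GL2 cells. GCLM read 11.96, 11.91 and 12.04 against 10.20, 9.47 and 9.44, a difference of 2.26 whose change from GL2 cells was 0.16 ± 0.20 (adjusted p = 0.709). SOX10 read 7.47, 7.05 and 7.37 against 9.60, 9.38 and 9.48, and its change was 0.27 ± 0.34 (adjusted p = 0.715). ATF4 targets were called higher in 24 of 33 (median 0.86), with 8 downward and 1 upward, or 13 and 0 without the 3 doubted libraries. For these genes a missing call does not show that the difference was equal.

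**Figure D4:**
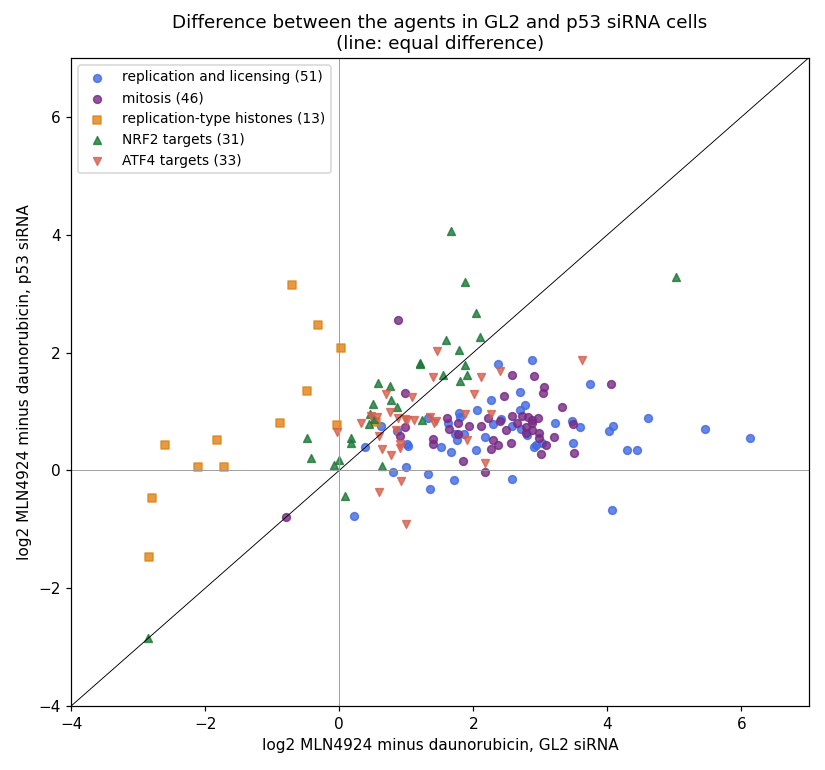
Each point is 1 gene of 5 lists, placed by its log2 difference between MLN4924 and daunorubicin in GL2 siRNA cells (horizontal) and in p53 siRNA cells (vertical), and the diagonal marks equal differences. Replication and mitosis genes have medians of 2.36 and 2.57 across and 0.62 and 0.74 up, whereas NRF2 targets have medians of 0.77 and 1.20.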

How the data were processed

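The authors deposited a table of linear signal intensity per probe set, which the submitters' processing notes credit to Affymetrix Expression Console without a version. Of 54675 probe sets, 41091 carried 1 gene symbol, 1801 several, 11721 none, and 62 were controls. For each of 19775 genes the brightest probe set on average was used. The 147 signals of 0 were raised to 0.1 before log2, and the arrays were centred on their median genes. Tests used limma 3.58.1 (lmFit, contrasts.fit, eBayes) in R 4.3.3 on 1 fit of all 14 groups, with 28 residual degrees of freedom, and the number of arrays limits the precision. Both DMSO sets were averaged with equal weight for comparisons with DMSO. Detection calls, background and scan batches were not used here. On simulated data with 19775 genes the tested fit recovered 25.4%, 47.8% and 81.8% of genes changed 1.5-, 2- and 4-fold and called 1 of 19575 unchanged genes. Only 67, 67 and 66 genes were changed there, and noise was drawn independently for each gene and array. In the real comparison 29.2% of genes were called, so the simulated shares need not hold for it. Lists were described by counts and medians, with no list test. Promoters came from RefSeq (GRCh38.p14). Tables used Python 3.11.15.

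The comparison, the lists, the motifs and the genes were chosen with earlier results of these data known. The genes named are CDT1, GMNN, BRCA1, CDKN1A, MDM2, TOP2A and CCNE1 always, the 10 largest differences a direction that were called with and without MLN4924 replicate 3, with groups apart and a higher mean of at least 7, up to 5 called members a direction in each list, and the 5 largest changes a direction between siRNAs. Those changes had to be called with and without MLN4924 replicate 3 of GL2 siRNA and to have a highest group mean of at least 7. PAX3, TYR, TYRP1, PMEL, MLANA, MITF, POLH and ABCB1 fall outside the rule and were added after their values were seen. Not all named genes are printed. Alternatives covered scaling, probe sets, pseudocount, dim genes, samples in the fit, variance model, array weights, thresholds, replicate block, DMSO sets and leaving out arrays, and the repeat of the DMSO and siRNA comparisons without the 3 doubted libraries was added after seeing the data.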

Additional observations from a re-analysis of the deposited data

Results flagged for a closer look

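10 genes were singled out because the difference between MLN4924 and daunorubicin itself differed between p53 and GL2 siRNA cells by limma's interaction test. They are the 5 largest in each direction among genes called again without MLN4924 replicate 3 of GL2 siRNA and with a highest group mean of at least 7. The downward changes were all in replication genes, at -5.59 for CDC45, -4.76 for GINS2, -4.74 for E2F8, -4.09 for DTL and -3.94 for CCNE2. Without the 3 doubted libraries they were -5.97, -4.81, -4.87, -4.24 and -3.86. DTL read 11.68, 11.66 and 11.82 with MLN4924 and 11.99, 11.17 and 10.96 with daunorubicin in p53 siRNA cells, so the wide gap of the GL2 arrays was not seen there.

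The upward changes were 3.56 for the histone gene H2BC9, 3.33 for EHBP1L1, 3.18 for ID1, 3.12 for AKT1S1 and 3.04 for LEMD1. Replicate 1 of p53 siRNA with daunorubicin, the library with the low beta-actin ratio, was the lowest of its group in H2BC9 (3.13 against 4.40 and 5.39), EHBP1L1 (1.76 against 4.42 and 6.39), ID1 (6.15 against 8.60 and 9.28) and AKT1S1 (3.42 against 6.57 and 8.24). Without the doubted libraries the changes were 3.18, 2.08, 2.17 and 1.70, and that of AKT1S1 was no longer called (adjusted p = 0.0559). LEMD1 was 3.20 without them, with daunorubicin at 7.80, 7.96 and 7.68 in GL2 cells and 5.21, 4.54 and 5.51 in p53 siRNA cells. The part of RNA quality in these values was not tested.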

How the results depend on the processing

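The split into higher and lower calls moved with the scaling, and the total with the fold limit. With 5773 genes called in the comparison of the agents, 3817 higher and 1956 lower, the scaling as deposited gave 1755 higher and 4185 lower, quantile normalization 2459 higher, and a 2-fold limit 3041 in all, 1844 higher and 1197 lower. With no fold limit 7379 genes were called. When the agents were taken from different DMSO sets, 4677 genes were called, 3192 higher and 1485 lower. The part of a difference between sets of arrays in the direct comparison was not tested. Scaled as deposited, the change between siRNAs had 505 genes upward and 1443 downward, MLN4924 against DMSO 1136 higher and 2166 lower, and daunorubicin against DMSO 2823 higher and 1416 lower. Leaving out each of the 6 arrays gave 5236 to 6080 calls, 3462 to 4029 higher and 1713 to 2051 lower. For the change between siRNAs, leaving out each of 12 arrays gave 1260 to 2429 calls, 567 to 1201 upward and 567 to 1228 downward, the highest without replicate 3 of p53 siRNA with daunorubicin. Of 148 called named genes, 100 kept direction and call under all 19 alternatives. Most of these genes were picked for being called, some also without MLN4924 replicate 3, so the count does not measure how stable all calls are. The 1 reversal was ICAM1, at 0.77 and at -0.02 with the agents taken from different DMSO sets. Replicate numbers did not pair the arrays (correlations of deviations of 0.005, -0.008 and 0.067), and with the replicate block 5757 genes were called. Genes below the median signal with 1 agent have uncertain folds.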
